A study of Mus musculus with 9 samples.

Results

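Axon guidance ligands and receptors were followed in the hippocampus of mice carrying a short or an expanded CUG repeat. The genes were taken by symbol as the semaphorins of classes 3 to 7, plexins, neuropilins, Eph receptors, ephrins, Slits, Robos, netrins, Unc5 receptors and Dcc. Of 24411 genes listed, 70 matched, and 68 of these were among the 14867 genes tested, which had a mean of at least log2(10) over all mice. The ligand Efna4 and the receptor Epha1 were below this level, at 3.23 and 2.14 on average. One of the 68, Plxna4os1, is not a receptor but an antisense RNA that the symbol rule also took, and it is kept apart from the families.

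RNA was measured in hippocampi of 9 male C57BL/6J mice, 3 per group, that the labels give as wild type and 10 weeks old. All mice received adeno-associated virus serotype 9 in the CA1 region of both hippocampi, carrying Egfp with CTG repeats in its 3′-UTR, and tissue was taken 10 days later. The groups were mice with 300 repeats given CWG-cPIP with the virus (CWG-cPIP–treated CUG300 mice), mice with 300 repeats given vehicle (vehicle-treated CUG300 mice), and mice with 10 repeats given vehicle (CUG10 mice). CWG-cPIP is a cyclic pyrrole-imidazole polyamide, a small molecule that binds CAG/CTG repeat DNA. The repeat was therefore expressed from a virus in the injected region of an adult brain, all groups carried the virus and Egfp, and no uninjected mice were part of these files. Levels are rlog values (DESeq2’s regularized logarithm, log2), and they carry no counts, so the depth behind each value is unknown. A difference of 1 is a doubling on this scale. Values of low genes are shrunk toward their mean, so for them it need not be a doubling of reads. Levels are compared between mice and not between genes. Markers of CA1 (4 genes), the dentate gyrus (3) and CA3 (Bok and Grik4) were among the genes tested, and Nectin3 was not analysed here.

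In the developing brain, axon guidance ligands attract or repel growing axons through receptors on the growth cone. Secreted semaphorins act through neuropilins and plexins, membrane-bound semaphorins through plexins, and ephrins through Eph receptors at cell contacts. Slits act through some of the Robos, and netrins through Dcc and Unc5 receptors. In the adult hippocampus many of these proteins act at synapses, and several also act in blood vessels and immune cells.

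CAG/CTG runs in the transcripts are shown first because they are the kind of sequence that CWG-cPIP binds. These runs were looked for, after the expression values had been seen, in the spliced coding transcripts of 69 of the 70 genes (GENCODE M21, GRCm38). The longest had 6 CTG units and lay in coding exons of Efna2, Efna3 and Sema4f, followed by 5 units in Sema4b. They are given 5′ to 3′ on the transcript strand with the run in capitals. The shorter runs of Robo4 (4 units) and Robo3 (3 units), genes described below, are also shown. Other members had runs of these same lengths.

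Efna2 (chr10:80179793-80179810, + strand): ccgCTGCTGCTGCTGCTGCTGccg

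Efna3 (chr3:89322801-89322818, - strand): ccgCTGCTGCTGCTGCTGCTGctc

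Sema4f (chr6:82939531-82939548, - strand): tcgCTGCTGCTGCTGCTGCTGgcg

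Sema4b (chr7:80198692-80198706, + strand): gcgCTGCTGCTGCTGCTGcta

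Robo4 (chr9:37408007-37408018, + strand): gagCAGCAGCAGCAGcct

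Robo3 (chr9:37429621-37429629, - strand): cgtCTGCTGCTGccc

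Runs of at least 4 units were found in 17.9% of the 67 coding members tested and in 6.95% of the 13841 coding genes tested that had a transcript, and runs of at least 3 units in 55.2% and 31.4%. Transcript length was not taken into account in these shares. Of the members called below, Sema4f had a run of 6 units and Robo4 one of 4 units. Robo3, Efna5, Ephb3, Ntn3 and Sema6c had runs of 3 units. No run of 3 or more units was found in the other called members, Ephb6, Efnb1, Efnb2, Epha2 and Sema6b.

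Between vehicle-treated CUG300 and CUG10 mice, 3 of 68 members were higher, 9 were lower and 56 did not pass the test (limma, Benjamini-Hochberg adjusted p under 0.05 over all genes tested). The receptors Robo3, Epha2 and Robo4 were higher. The lower members were the ligands Efnb2, Efnb1, Efna5, Sema4f, Sema6b, Sema6c and Ntn3 and the receptors Ephb6 and Ephb3. Over all genes tested 7.37% were higher and 3.34% lower, against 4.41% and 13.2% of the members. Groups did not overlap for 4 members higher and 19 lower in vehicle-treated CUG300 mice (5.88% and 27.9%), beside 18.2% and 16.7% of all genes tested. The median difference of the members was -0.30, beside -0.01 for all genes tested, and 52 of the 68 means (76.5%) were lower in vehicle-treated CUG300 mice, beside 51.6% of all genes tested. At an unadjusted p under 0.05, 5 members were higher and 19 lower, beside 16.3% and 14.2% of all genes tested.

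These calls depended on single mice. None of the 12 stayed called without CUG10 replicate 1, 2 or 3 or without vehicle-treated CUG300 replicate 3, and over all genes tested 1592 calls then became 0, 2, 0 and 0. Without CWG-cPIP–treated replicate 1 only Ephb6 and Robo3 stayed called, and without vehicle-treated CUG300 replicate 2 the members called lower numbered 17. The direction of all 12 differences was the same without each of the 9 mice in turn. This was fixed in advance, since vehicle-treated CUG300 and CUG10 mice did not overlap for any of the 12. In bulk tissue, fewer cells of a type and less RNA per cell cannot be told apart.

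**Figure D1:**
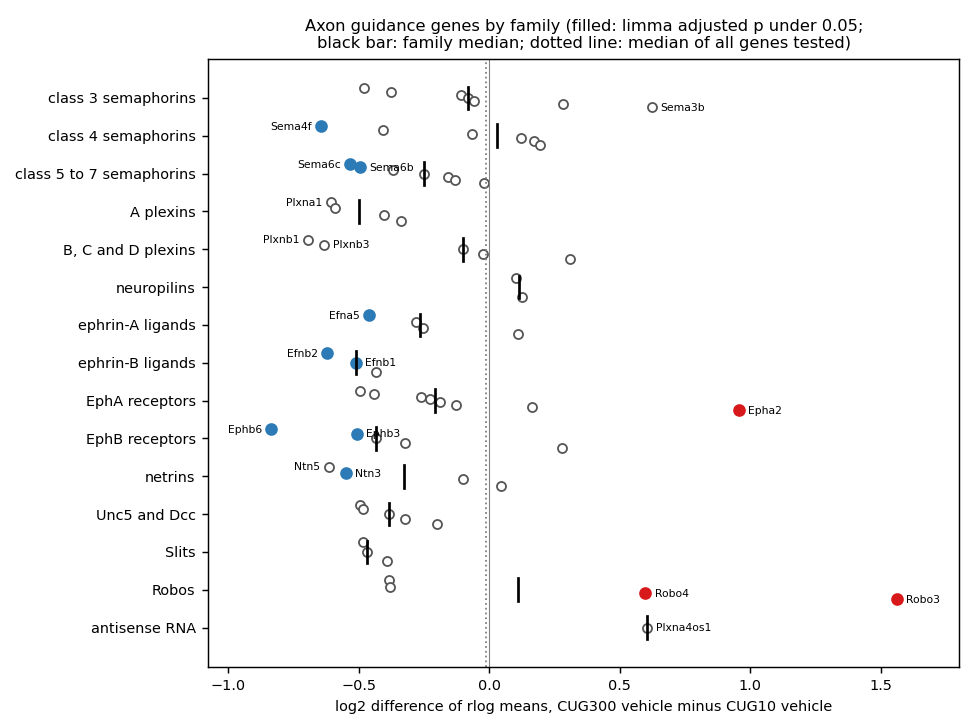
Log2 difference of rlog means, vehicle-treated CUG300 minus CUG10 mice (horizontal axis), for the 68 axon guidance genes by family (vertical axis). Each circle is a gene, filled where the limma adjusted p was under 0.05 (red higher, blue lower), black bars are family medians and the dotted line is the median of all genes tested. Most circles lie left of 0, while Robo3, Epha2 and Robo4 stand to the right at 1.56, 0.96 and 0.60.

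Among the Robos, Robo3 is known in the mouse for its role in axons that cross the midline. Robo3 was 9.67, 8.61 and 9.51 in CWG-cPIP–treated CUG300 mice, 9.02, 9.73 and 9.81 in vehicle-treated CUG300 mice, and 7.79, 7.99 and 8.09 in CUG10 mice. Every CUG300 mouse was above every CUG10 mouse. The difference between vehicle-treated CUG300 and CUG10 mice was 1.56 ± 0.29 (SE, limma adjusted p = 0.0234), the largest rise among the members. CWG-cPIP–treated CUG300 mice differed from CUG10 mice by 1.31, which did not pass (limma adjusted p = 0.137).

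Robo4, a Robo of endothelial cells, was 6.87, 6.66 and 7.06 in CWG-cPIP–treated CUG300 mice, 6.94, 6.99 and 7.30 in vehicle-treated CUG300 mice, and 6.44, 6.53 and 6.46 in CUG10 mice. It was higher in vehicle-treated CUG300 than in CUG10 mice, with a difference of 0.60 ± 0.14 (SE, limma adjusted p = 0.0353), and the call was lost with quantile scaling (0.0699). Robo3 and Robo4 are neighbours on chromosome 9 with their 3′ ends 553 bases apart, so the reads of both come from adjoining sequence. Robo1 and Robo2, the Robos of many neurons, had differences of -0.38 and -0.38 and did not pass. The Slits did not pass either, at -0.48 for Slit3, -0.47 for Slit1 and -0.39 for Slit2.

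Markers of infiltrating leukocytes were higher in the group in which Robo3 was higher. The summed level of this 6-gene list was 8.63 to 11.997 in CWG-cPIP–treated CUG300 mice, 11.50 to 12.21 in vehicle-treated CUG300 mice, and 7.69 to 8.15 in CUG10 mice, and 5 of the 6 genes were higher in vehicle-treated CUG300 than in CUG10 mice. None of the 6 was at 0 in any mouse, but rlog values are shrunk, so this does not show reads in each mouse. CWG-cPIP–treated replicate 2 had both the lowest leukocyte level and the lowest Robo3 of the CUG300 mice. The order of the other mice was not shared within a group, since CWG-cPIP–treated replicate 1 had a Robo3 level of 9.67 at a list level of 10.39, and replicate 3 had 9.51 at 11.997. Likewise vehicle-treated CUG300 replicate 1 had 9.02 at 11.64, and replicate 2 had 9.73 at 11.50. With the list as a covariate, an analysis added after seeing the data, the Robo3 difference was 0.47 (limma adjusted p = 0.984). The list itself separates vehicle-treated CUG300 from CUG10 mice, so that list and group cannot be told apart for Robo3. For Robo4, 4 endothelial markers gave a summed level of 10.89 to 11.14 in CWG-cPIP–treated CUG300, 10.96 to 11.14 in vehicle-treated CUG300 and 10.78 to 10.98 in CUG10 mice, with 0 of the 4 called by limma. Their part in the Robo4 result was not tested.

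Ephb6 is an Eph receptor whose kinase domain is inactive, and it had the smallest adjusted p of all members. Ephb6 was 9.77, 9.78 and 9.77 in CWG-cPIP–treated CUG300 mice, 9.61, 9.51 and 9.84 in vehicle-treated CUG300 mice, and 10.51, 10.46 and 10.51 in CUG10 mice. The CUG300 mice of both treatments lay below all CUG10 mice. The difference between vehicle-treated CUG300 and CUG10 mice was -0.84 ± 0.10 (SE, limma adjusted p = 0.0207). CWG-cPIP–treated CUG300 mice were -0.72 ± 0.10 from CUG10 mice (SE, limma adjusted p = 0.0879), which did not pass when all mice shared a variance and did pass in a fit of the 2 groups compared (adjusted p = 0.0315).

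Ephb3, a kinase-active receptor of B ephrins, was 7.82, 7.97 and 7.77 in CWG-cPIP–treated CUG300 mice, 7.75, 7.69 and 7.79 in vehicle-treated CUG300 mice, and 8.37, 8.16 and 8.23 in CUG10 mice. It was lower in vehicle-treated CUG300 than in CUG10 mice, with a difference of -0.51 ± 0.11 (SE, limma adjusted p = 0.0267), and the groups did not overlap. Among the other B receptors, Ephb1, Ephb2 and Ephb4 had differences of -0.44, -0.32 and 0.28 and did not pass.

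Epha2 was the only A receptor called, and the only Eph receptor called higher. Epha2, which is best known from epithelial cells, was 6.18, 5.46 and 6.29 in CWG-cPIP–treated CUG300 mice, 5.95, 6.46 and 6.69 in vehicle-treated CUG300 mice, and 5.26, 5.54 and 5.43 in CUG10 mice. It was higher in vehicle-treated CUG300 than in CUG10 mice, with a difference of 0.96 ± 0.25 (SE, limma adjusted p = 0.0438). The call was lost with no filter (0.0551), with quantile scaling (0.059) and with a replicate block (limma adjusted p = 0.0509). Of the CWG-cPIP–treated mice, replicate 2 lay within the range of CUG10 mice. The other 7 A receptors tested had differences between -0.50 for Epha10 and 0.16 for Epha7, and none passed.

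All 3 B ephrins, the transmembrane ligands of Eph receptors, were lower in vehicle-treated CUG300 than in CUG10 mice without overlap, and 2 of the 3 passed. Efnb2, an ephrin of vessels and synapses, was 8.06, 8.46 and 8.07 in CWG-cPIP–treated CUG300 mice, 7.92, 7.79 and 7.88 in vehicle-treated CUG300 mice, and 8.72, 8.24 and 8.51 in CUG10 mice. Its difference between vehicle-treated CUG300 and CUG10 mice was -0.62 ± 0.16 (SE, limma adjusted p = 0.0393), and the call was lost with a replicate block (0.0622). CWG-cPIP–treated mice lay above all vehicle-treated CUG300 mice and overlapped with CUG10 mice.

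Efnb1 was 7.19, 7.35 and 7.21 in CWG-cPIP–treated CUG300 mice, 7.06, 7.24 and 7.17 in vehicle-treated CUG300 mice, and 7.58, 7.57 and 7.86 in CUG10 mice. It was lower in vehicle-treated CUG300 mice, with a difference of -0.51 ± 0.12 (SE, limma adjusted p = 0.0345), and the treated mice overlapped with the vehicle-treated ones. Efnb3 had a difference of -0.43 and did not pass (limma adjusted p = 0.0835).

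Among the A ephrins, which are held in the membrane by a lipid anchor, only Efna5 was called. Efna5, a repellent ligand of topographic maps, was 6.90, 6.87 and 6.62 in CWG-cPIP–treated CUG300 mice, 6.97, 6.68 and 6.91 in vehicle-treated CUG300 mice, and 7.35, 7.33 and 7.27 in CUG10 mice. All CUG300 mice lay below all CUG10 mice, and the difference was -0.46 ± 0.13 with vehicle (SE, limma adjusted p = 0.0489). Efna5 was just under the threshold and was not called without the filter on low values, in the fit of the 2 groups compared or with a replicate block (adjusted p = 0.0624, 0.0605 and 0.0644). Efna2 and Efna3, which carry the longest CTG runs, had differences of -0.28 and -0.25 and did not pass.

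Of the semaphorins, 3 membrane-bound ligands were lower and none was higher. Sema4f, a semaphorin of glutamatergic synapses that carries the 6-unit CTG run above, was 9.39, 9.54 and 9.19 in CWG-cPIP–treated CUG300 mice, 9.0, 9.18 and 8.70 in vehicle-treated CUG300 mice, and 9.42, 9.61 and 9.79 in CUG10 mice. The difference between vehicle-treated CUG300 and CUG10 mice was -0.65 ± 0.15 (SE, limma adjusted p = 0.0355). Every CWG-cPIP–treated mouse was above every vehicle-treated CUG300 mouse, though the closest values were 9.19 and 9.18.

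Sema6b, a ligand of A plexins, was 10.92, 10.78 and 10.85 in CWG-cPIP–treated CUG300 mice, 10.59, 10.71 and 10.32 in vehicle-treated CUG300 mice, and 10.96, 11.05 and 11.10 in CUG10 mice. It was lower in vehicle-treated CUG300 than in CUG10 mice, with a difference of -0.50 ± 0.11 (SE, limma adjusted p = 0.0301). The 3 groups did not overlap, with the CWG-cPIP–treated mice in between.

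Sema6c, a transmembrane semaphorin of the same class, was 8.63, 8.63 and 8.58 in CWG-cPIP–treated CUG300 mice, 8.38, 8.32 and 7.89 in vehicle-treated CUG300 mice, and 8.56, 8.85 and 8.78 in CUG10 mice. Its difference between vehicle-treated CUG300 and CUG10 mice was -0.53 ± 0.14 (SE, limma adjusted p = 0.0472). The call was lost with no filter (0.0556), in the fit of only the 2 groups compared (0.0766) and with a replicate block (limma adjusted p = 0.0603). Vehicle-treated CUG300 replicate 3 was the lowest of the 9 mice for Sema4f, Sema6b and Sema6c.

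The remaining semaphorins did not pass. Sema3b, a secreted semaphorin, and Sema3d had the largest class 3 differences, 0.62 and -0.48. Sema4g differed by -0.41 and Sema5a by -0.25. The 2 neuropilins, co-receptors of secreted semaphorins, were at 0.13 for Nrp1 and 0.10 for Nrp2, and both signs turned when single mice were left out. No plexin, the signalling receptor of semaphorins, passed. Plxnb1, Plxnb3, Plxna1 and Plxna2 had differences of -0.69, -0.63, -0.61 and -0.59 without overlap between vehicle-treated CUG300 and CUG10 mice (limma adjusted p = 0.0992, 0.0830, 0.0795 and 0.0842). The antisense RNA Plxna4os1 differed by 0.60 and Plxna4 by -0.34, and neither passed. They overlap by 4504 bases on opposite strands, and the libraries were directional, but use of the strand in counting is not stated.

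Of the netrins, Ntn3 was 6.96, 7.02 and 6.81 in CWG-cPIP–treated CUG300 mice, 6.72, 6.73 and 6.53 in vehicle-treated CUG300 mice, and 7.06, 7.31 and 7.26 in CUG10 mice. Ntn3 encodes a secreted netrin, and the 3 groups did not overlap, with the CWG-cPIP–treated mice in between. It was lower in vehicle-treated CUG300 than in CUG10 mice, with a difference of -0.55 ± 0.12 (SE, limma adjusted p = 0.0304). Its annotation shares 1715 bases with Tbc1d24 on the same strand, so its value is uncertain. Ntn5 differed by -0.61 and just missed the threshold (limma adjusted p = 0.0536). The netrin receptors did not pass, with Dcc at -0.50 and Unc5b at -0.48 the furthest from 0.

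**Figure D2:**
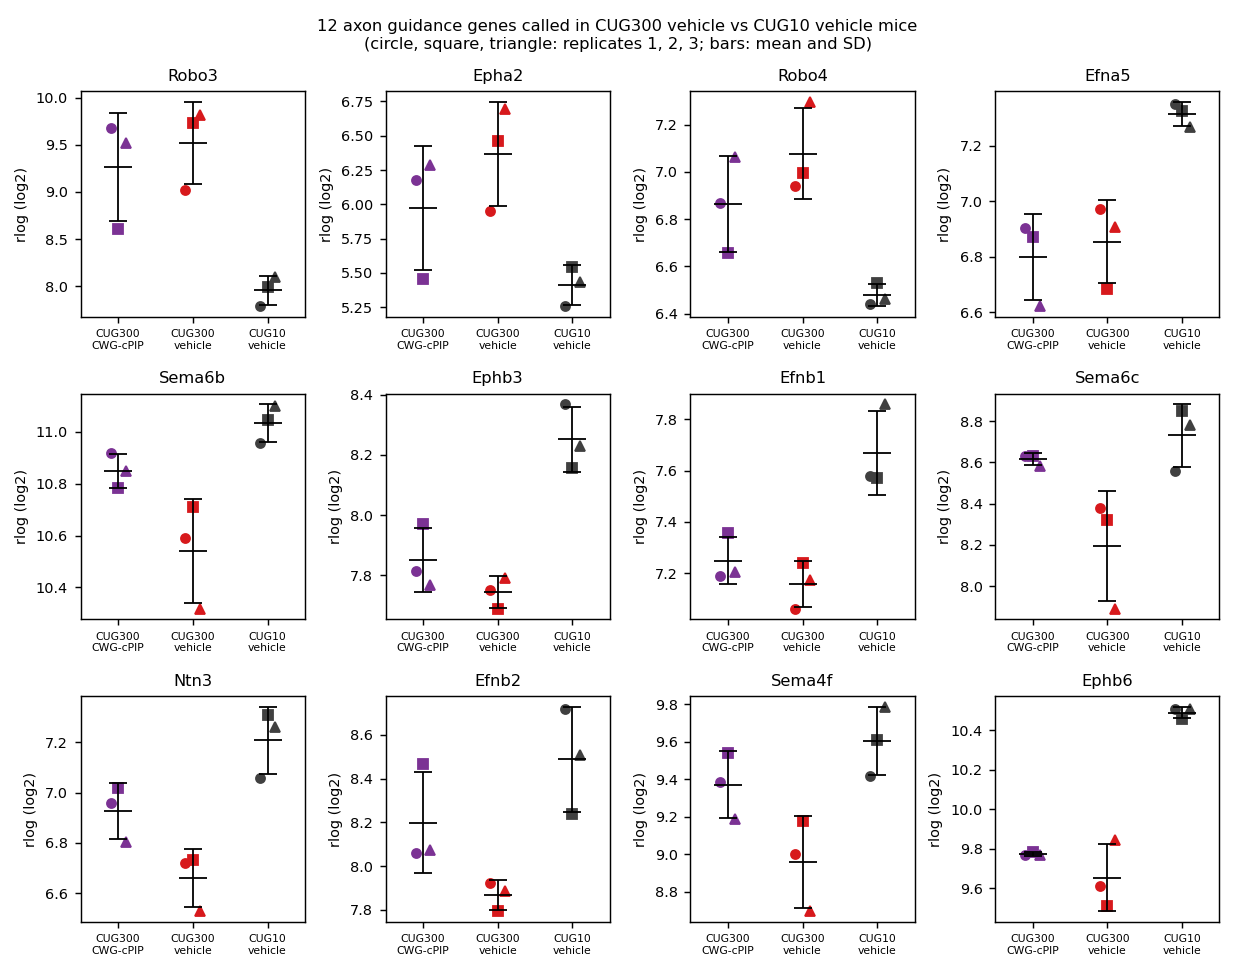
rlog values (log2, vertical axes that do not start at 0) of the 12 genes called between vehicle-treated CUG300 and CUG10 mice, for each of the 3 groups. Circles, squares and triangles are replicates 1, 2 and 3 and bars are mean and SD (n = 3). In Ephb6, Ephb3, Efnb1 and Efna5 both CUG300 groups lie below CUG10 mice, while in Sema6c and Sema4f the CWG-cPIP–treated mice overlap with CUG10 mice.

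Some lists of neuronal and glial markers also differed in level between these groups. The summed level of 6 neuronal markers was 16.33 to 16.62 in CWG-cPIP–treated CUG300, 16.01 to 16.56 in vehicle-treated CUG300 and 16.65 to 16.70 in CUG10 mice, and 1 of the 6 was called lower with vehicle than in CUG10 mice. That of 4 CA1 markers was 12.87 to 12.93, 12.37 to 12.63 and 12.74 to 13.01 in the same 3 groups, with 2 of the 4 called lower. The 4 markers of cortex and striatum, tissue around the hippocampus, had a summed level of 9.53 to 10.20 in CWG-cPIP–treated CUG300, 9.84 to 11.30 in vehicle-treated CUG300 and 10.79 to 12.05 in CUG10 mice, with 1 of the 4 called lower with vehicle. Those of oligodendrocyte precursors (3 genes) gave 9.37 to 10.50, 9.39 to 10.00 and 10.29 to 10.39, and those of interneurons (3 genes) 12.68 to 13.45, 12.57 to 12.79 and 13.09 to 13.10, with 0 called by limma in either list. Astrocyte markers (4 genes) were at 15.50 to 15.76, 15.66 to 15.70 and 15.03 to 15.28, with 2 called higher with vehicle than in CUG10 mice. Microglia markers (4 genes) were at 11.92 to 11.99, 11.91 to 12.14 and 11.59 to 11.86, with 1 called higher. By summed level, vehicle-treated CUG300 mice thus lay below all CUG10 mice for neurons, CA1, oligodendrocyte precursors and interneurons. They lay above them for astrocytes and microglia, and overlapped with them for cortex and striatum, CA3, the dentate gyrus, and mural cells and fibroblasts. They also overlapped for mature oligodendrocytes, at 15.40 to 16.84 in vehicle-treated CUG300 and 16.40 to 16.88 in CUG10 mice. Of the 6 mural cell and fibroblast markers, 2 were called higher with vehicle than in CUG10 mice, and 0 were called in the oligodendrocyte and CA3 lists. Single markers did not all follow the sums. The CA1 markers Wfs1 and Pou3f1 and the neuronal marker Camk2a overlapped between vehicle-treated CUG300 and CUG10 mice. Pou3f1 was 10.81, 9.99 and 10.77 in vehicle-treated CUG300 mice and 10.70, 10.38 and 10.36 in CUG10 mice. The other CA1 and neuronal markers were lower without overlap. Between these groups the astrocyte markers Gfap and Aqp4 were higher without overlap, while Gja1 and Slc1a2 were lower without overlap. Gja1 was at most 10.88 in vehicle-treated CUG300 and at least 10.97 in CUG10 mice, and Slc1a2 at most 13.65 and at least 13.81. The microglia marker P2ry12 overlapped, with lowest values of 7.72 and 8.24 in the same order. None of these markers was at 0, which for rlog values does not show reads in each mouse. Their part in the results of the 12 members called was not tested.

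Other genes of the pathway were read from a list of 73 co-receptors, modulators and intracellular effectors, all tested. Between vehicle-treated CUG300 and CUG10 mice 1 was higher, 5 were lower and 67 did not pass, with a median of -0.20, beside 7.37% higher, 3.34% lower and a median of -0.01 over all genes tested. The small GTPase Rras was higher by 0.88 ± 0.24 (SE, limma adjusted p = 0.0474). The lower genes were Flrt1, a ligand of Unc5 receptors, at -0.95, the ephexin Ngef, which acts below EphA receptors, at -0.85, the chimaerin Chn2 at -0.67, the kinase Pak1 at -0.53, and Crmp1, a mediator of semaphorin signals, at -0.33. The largest difference, 1.31 for the kinase Fes, which acts below plexins, did not pass (limma adjusted p = 0.0520).

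The effect of CWG-cPIP was read against vehicle within CUG300 mice. No member was called by limma, and no gene among all tested was, with a smallest adjusted p of 0.483. At an unadjusted p under 0.05, 10 members were higher and 1 was lower (14.7% and 1.47%), beside 5.23% and 3.60% of all genes tested. The median of the members was 0.18, beside 0.00 (-0.0032) for all genes tested. This comparison and the preceding one share the vehicle-treated CUG300 mice. The summed level of 5 markers of thalamus and diencephalon was 9.43 to 9.87 in CWG-cPIP–treated CUG300 mice, 7.79 to 9.13 in vehicle-treated CUG300 mice and 7.95 to 8.12 in CUG10 mice. CWG-cPIP–treated mice thus overlapped with neither group in this list, 0 of the 5 genes were called by limma, and their part in the members' differences was not tested.

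Groups did not overlap for 7 members higher with CWG-cPIP, Sema4f, Sema6b, Sema6c, Efnb2, Efnb3, Efna3 and Ntn3, and for 1 lower, Sema3b (10.3% and 1.47%), beside 4.97% and 3.50% of all genes tested. The differences of these 7 were 0.41, 0.31, 0.42, 0.33, 0.33, 0.28 and 0.27 in that order, and none passed the adjusted test.

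**Figure D3:**
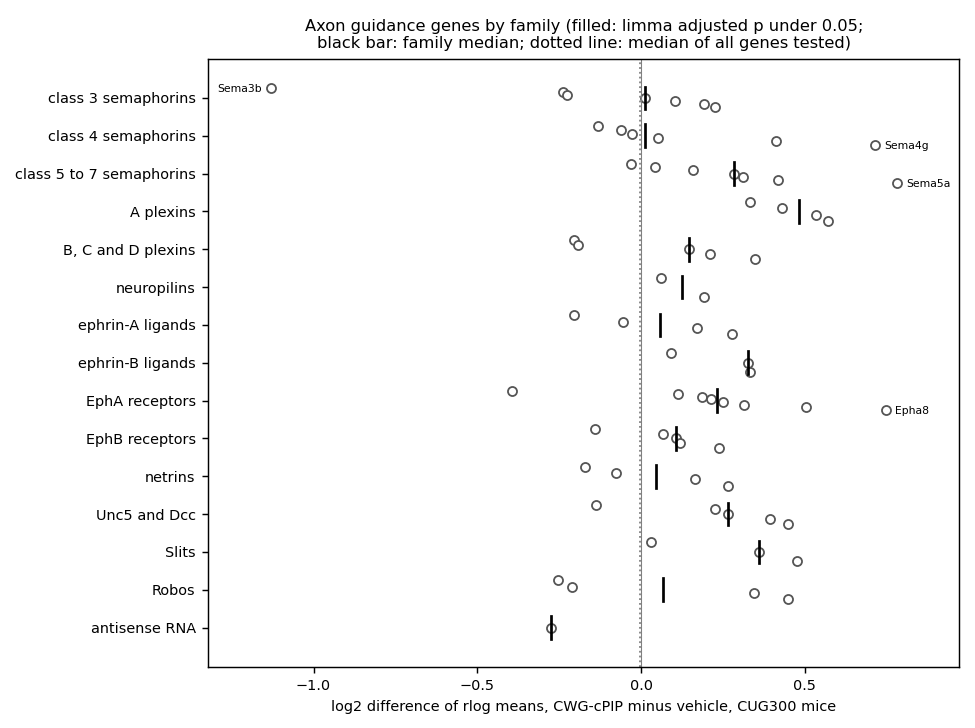
Log2 difference of rlog means, CWG-cPIP–treated minus vehicle-treated CUG300 mice (horizontal axis), for the 68 axon guidance genes by family (vertical axis). Circles are genes, all open since none had a limma adjusted p under 0.05, black bars are family medians and the dotted line is the median of all genes tested. Sema3b stands alone at -1.13, and the A plexins lie between 0.33 and 0.57.

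None of the named differences with CWG-cPIP passed the test. The largest positive ones were 0.78 for Sema5a, 0.75 for Epha8 and 0.72 for Sema4g. Sema5a, a transmembrane semaphorin that in the mouse limits synapse number on granule cells, was 10.73, 10.91 and 10.01 in CWG-cPIP–treated CUG300 mice, 9.13, 11.00 and 9.17 in vehicle-treated CUG300 mice, and 9.80, 10.09 and 10.17 in CUG10 mice. Vehicle-treated replicate 2 was above all other mice, so the groups overlapped. The same mouse had the highest summed level of 3 dentate gyrus markers, 11.72, where the other vehicle-treated CUG300 mice had 10.48 and 9.93. That level was 11.20 to 11.55 in CWG-cPIP–treated CUG300 mice and 10.65 to 10.84 in CUG10 mice, and its part in the Sema5a values was not tested.

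Epha8, an Eph receptor, was 6.50, 6.80 and 5.86 in CWG-cPIP–treated CUG300 mice, 5.44, 5.98 and 5.50 in vehicle-treated CUG300 mice, and 5.90, 5.77 and 5.93 in CUG10 mice. Sema4g, a transmembrane semaphorin, was 7.63, 7.73 and 7.06 in CWG-cPIP–treated CUG300 mice, 6.41, 7.28 and 6.59 in vehicle-treated CUG300 mice, and 7.19, 7.15 and 7.16 in CUG10 mice. In both genes CWG-cPIP–treated replicate 3 was the lowest of its group and vehicle-treated replicate 2 the highest of its own, and the groups overlapped. The SE of the difference was 0.24 for each.

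The largest negative differences were -1.13 for Sema3b, -0.39 for Epha2 and -0.28 for Plxna4os1. Sema3b was 6.25, 6.23 and 6.01 in CWG-cPIP–treated CUG300 mice, 7.55, 6.85 and 7.47 in vehicle-treated CUG300 mice, and 6.32, 6.46 and 7.22 in CUG10 mice. It was lower in every CWG-cPIP–treated mouse than in every vehicle-treated mouse, with a difference of -1.13 ± 0.26 (SE, limma adjusted p = 0.483).

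The choroid plexus borders the hippocampus, and by summed level its markers, like Sema3b, were lower with CWG-cPIP than with vehicle in CUG300 mice. The summed level of this 6-gene list was 10.43 to 10.86 in CWG-cPIP–treated CUG300 mice, 14.01 to 15.96 in vehicle-treated CUG300 mice, and 10.44, 13.36 and 14.88 in CUG10 mice. Within CUG10 and within vehicle-treated CUG300 mice, Sema3b and the list had the same order of mice. Within CWG-cPIP–treated mice they did not, since replicate 2 had a Sema3b level of 6.23 at a list level of 10.43. Replicate 3 had 6.01 at 10.77. The marker Otx2 overlapped between the 2 treatments, at 7.21 in CWG-cPIP–treated replicate 2 and 6.78 in vehicle-treated CUG300 replicate 2. The other markers of the list did not overlap between the treatments. None of the 6 markers was at 0 in any mouse, which for rlog values does not show reads in each. None was called by limma. With the list as a covariate, a fit added after seeing the data, the Sema3b difference was -0.26, against -1.13 without it. The list separates the 2 treatments within CUG300 mice, so that list and treatment cannot be told apart for Sema3b.

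Plxna4os1 was 4.56, 4.22 and 5.09 in CWG-cPIP–treated CUG300 mice, 5.12, 4.61 and 4.97 in vehicle-treated CUG300 mice, and 4.22, 4.49 and 4.18 in CUG10 mice. The 2 groups of CUG300 mice overlapped, with a difference of -0.28 ± 0.22 (SE, limma adjusted p = 0.548).

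**Figure D4:**
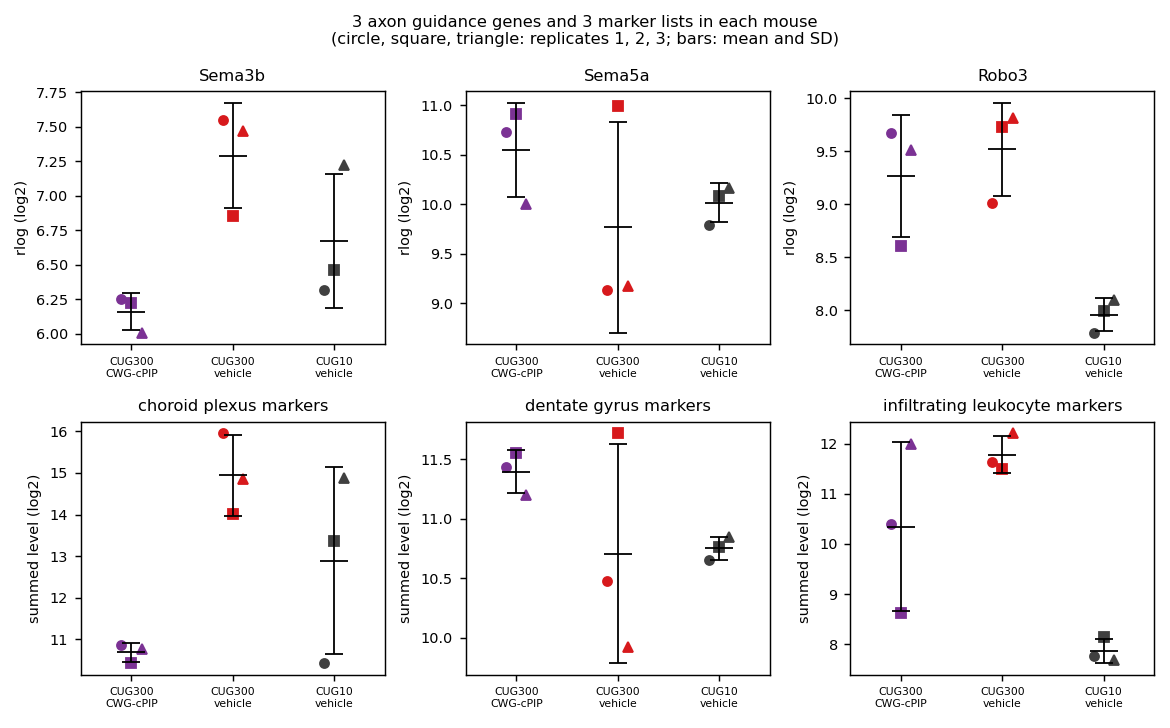
rlog values (log2) of Sema3b, Sema5a and Robo3 above the summed level (log2) of 3 marker lists, choroid plexus, dentate gyrus and infiltrating leukocytes, in each group. Circles, squares and triangles are replicates 1, 2 and 3, bars are mean and SD (n = 3), and vertical axes do not start at 0. Vehicle-treated CUG300 replicate 2 is high in both Sema5a (11.00) and dentate gyrus markers (11.72).

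CWG-cPIP–treated CUG300 mice were last set against CUG10 mice. No member and no other gene was called by limma, with Ephb6 the lowest at an adjusted p of 0.0879. At an unadjusted p under 0.05, 2 members, Robo3 and Robo4, were higher and 9 were lower (2.94% and 13.2%), beside 8.12% and 5.31% of all genes tested. The 9 were Ephb6, Ephb3, Ephb1, Efna5, Efnb1, Ntn3, Ntn5, Sema3a and Plxnb3. Groups did not overlap for 7 members higher and 11 lower (10.3% and 16.2%), beside 13.4% and 12.4% of all genes tested. The median of the members was -0.06. Without CWG-cPIP–treated replicate 2, 567 genes were called over all genes tested, among them 1 member higher and 1 lower.

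In an F test between all groups 0 members and 0 of all genes were called by limma, with Ephb6 the smallest of the members at an adjusted p of 0.0547. At an unadjusted p under 0.05 there were 22 members (32.4%), beside 23.5% of all genes tested. Without CWG-cPIP–treated replicate 2 or replicate 3, 4 and 5 members were called.

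The spread between mice differed between groups. The median SD of a member was 0.180 in CWG-cPIP–treated CUG300, 0.284 in vehicle-treated CUG300 and 0.148 in CUG10 mice. Over all genes tested it was 0.144, 0.218 and 0.101, in the same order of groups. Vehicle-treated CUG300 replicate 2 was the highest of its group in 57.4% of members, beside 35.0% of all genes tested, and CWG-cPIP–treated replicate 3 the lowest of its group in 67.6%, beside 43.6%.

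Promoters were read, after the expression values had been seen, for the called member with the smallest adjusted p in each direction, Robo3 and Ephb6. The windows are RefSeq sequence (GRCm38.p6), 5′ to 3′ on the gene's strand, cut to the bases before both the RefSeq and the GENCODE start, with GC boxes (GGGCGG on either strand) in capitals. The Robo3 window of 179 bases (chr9:37433247-37433425, - strand) held 1 box and the Ephb6 window of 221 bases (chr6:41605261-41605481, + strand) held 4.

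Robo3: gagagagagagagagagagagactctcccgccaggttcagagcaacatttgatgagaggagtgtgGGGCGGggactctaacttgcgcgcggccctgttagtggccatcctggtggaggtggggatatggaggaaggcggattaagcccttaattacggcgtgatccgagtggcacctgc

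Ephb6: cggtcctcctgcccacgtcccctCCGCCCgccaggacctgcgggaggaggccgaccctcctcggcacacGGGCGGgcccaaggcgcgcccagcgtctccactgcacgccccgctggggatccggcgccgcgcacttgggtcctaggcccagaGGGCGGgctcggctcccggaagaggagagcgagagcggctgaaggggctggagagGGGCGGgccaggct

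In full RefSeq windows, which were matched for 57 members tested, GC boxes stood in 75.4% of members and 67.2% of 11230 genes tested. The other 3 motifs searched on both strands were GAAA repeated with any 2 bases between the copies, in 3.51% of members and 3.83% of genes tested, CAGCACC in 14% and 9.15%, and CACGTG in 8.77% and 11.3%. These matches describe the letters of the windows and not binding.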

How the data were processed

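Total RNA of 9 hippocampi, 3 per group by the sample titles, was sequenced from directional libraries. The submitters' processing notes name Trim Galore 0.6.6 for trimming, STAR 2.7.9a for alignment to mm10, RSEM 1.3.3 for quantification and DESeq2 1.36.0. The values the authors deposited are DESeq2 rlog values (log2), in which low genes are shrunk toward their mean. Annotation, strand use and rlog options are not given in the sources used here. Depth is unknown and no count model was used.

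Genes whose mean reached log2(10) were tested with limma 3.58.1 in R 4.3.3 (variance trend, 1 mean per group, all 9 mice, 3.031 prior degrees of freedom, two-sided, Benjamini-Hochberg over 14867 genes). In simulated data the procedure called 11 of 67 changes of 0.5 planted between vehicle-treated CUG300 and CUG10 mice. It called 46 of 67 changes of 1 and 63 of 66 changes of 2, with 8 unchanged genes. For CWG-cPIP against vehicle these were 19 of 67, 50 of 67 and 63 of 66, with 14 unchanged genes. All groups of a gene were simulated with the same spread. In the data the median SD over all genes tested was 0.218 in vehicle-treated CUG300 and 0.101 in CUG10 mice. Fewer changes were planted than the 1592 genes called between these groups. The rates therefore do not rank the comparisons or give the power of the real ones. A difference that did not pass is not shown to be absent. The labels do not say that replicates were separate cohorts or batches, and p-values measure the spread between these mice.

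Members and lists were chosen with earlier results of these data known. Named were all called members, the 2 with the largest difference between vehicle-treated CUG300 and CUG10 mice in each of 14 families, and the 3 largest rises and falls with CWG-cPIP. Marker levels are the log2 of summed linear values. The CAG/CTG and promoter searches and 2 covariate fits were added after seeing the data. Same-numbered mice correlated in their deviations at -0.50 to 0.41, and differently numbered mice at -0.52 to 0.46. The numbers were not used as pairs in the main fit. Alternatives were median centering, quantile scaling, other filters, no trend, a robust prior, only the groups compared, a replicate block and leaving out each mouse.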

Additional observations from a re-analysis of the deposited data

How the results depend on the processing

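Between vehicle-treated CUG300 and CUG10 mice, the members called higher ranged from 0 to 4 and those called lower from 0 to 17 when each mouse was left out, so the calls rest on 3 mice per group. With CWG-cPIP against CUG10 mice these ranges were 0 to 1 and 0 to 1, with CWG-cPIP against vehicle 0 to 0 and 0 to 0, and in the F test 0 to 5. Quantile scaling left 1 member higher between vehicle-treated CUG300 and CUG10 mice, with Epha2 and Robo4 lost. The fit of only the 2 groups compared called 1 member lower with CWG-cPIP against CUG10 mice, and median centering called 1 in the F test. Same-numbered mice correlated in their deviations at -0.50 to 0.41, over 0.1 in 3 of 9 pairs, and a replicate block kept 8 of the 12 calls, losing Efna5, Efnb2, Epha2 and Sema6c (adjusted p = 0.0644, 0.0622, 0.0509 and 0.0603). The cause of these changes was not tested.

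Signs of values that did not pass turned in some fits. For vehicle-treated CUG300 against CUG10 mice, leaving out each mouse gave -0.1653 to 0.3286 for Nrp2, -0.0021 to 0.2098 for Nrp1 and -0.8635 to 0.0675 for Sema5a. For CWG-cPIP against vehicle it gave -0.506 to 0.0748 for Robo3 and -0.1398 to 0.0343 for Efna5, and quantile scaling gave 0.0139 for Efna5.

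Covariates were added after seeing the data. With the choroid plexus or the infiltrating leukocyte level as a covariate, 0 members were called higher and 0 lower between vehicle-treated CUG300 and CUG10 mice, and 0 of all genes tested were (limma). With the choroid plexus level the differences were 1.52 for Robo3, -0.85 for Ephb6, -0.54 for Sema6b and -0.63 for Ntn3 (adjusted p from 0.123 to 0.138), against 1.56, -0.84, -0.50 and -0.55 in that order without it. For CWG-cPIP against vehicle, the Sema3b difference was -0.26 with this level and -1.13 without it. This list separates the 2 treatments within CUG300 mice, so that list and treatment cannot be told apart there. With the choroid plexus level Ephb3 turned to -0.0193 for CWG-cPIP against vehicle and Sema6c to 0.0054 for CWG-cPIP against CUG10 mice. With the leukocyte level, which separates vehicle-treated CUG300 from CUG10 mice so that list and group cannot be told apart, 19 of 60 values turned sign. Between vehicle-treated CUG300 and CUG10 mice these were Dcc 0.18, Efna2 0.13, Epha10 0.34, Epha2 -0.0921, Epha8 0.89, Nrp1 -0.0224, Plxna2 0.14, Plxna4os1 -0.45, Plxnb1 0.56, Plxnb3 0.0217, Sema3d 1.00, Sema4g 0.43, Sema5a 1.04 and Slit3 0.009. For CWG-cPIP against vehicle they were Plxna4os1 0.11 and Robo3 0.15, and for CWG-cPIP against CUG10 mice Efnb2 0.013, Epha2 -0.0989 and Sema4f 0.0876. The adjusted p of these 19 was 0.874 or higher.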
